A study of Rattus norvegicus with 8 samples.

Results

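The 8 genes described here encode secreted proteins of host defence. Scgb1a1 and Sftpd are best known from the airways, and Bpifb2 is grouped with them here under the label airway-type. Reg3b, Reg3g, Pla2g2a, Lcn2 and Lyz2 act against bacteria in the gut and in phagocytes. The 8 genes were chosen by name, with results of these arrays in view, and are 8 of the 26913 genes that have a probe on the array. All 8 have 1 probe with 2 spots per array, and 7 of them were among the 19899 genes tested, Reg3b being too dim. Because differences between the diets had a part in the choice, these differences are given as a description, without a p-value.

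The arrays measured RNA from a small piece of the middle colon, with all layers of its wall, of 16 female Wistar rats aged 6 weeks. The 4 diets had been fed for 3 weeks, with 4 rats on the arrays of the 10 that were fed each diet. The REF diet was the purified AIN-93M chow, the C10 diet contained 10% cocoa, the CF diet had cocoa fiber powder with the fiber of the C10 diet but very little polyphenol, and the I diet had inulin in place of the soluble cocoa fiber. Comparisons with REF therefore ask what cocoa, its fiber or inulin does to colonic gene expression, and C10 against CF asks what cocoa adds beyond its fiber. Each of 8 arrays held 2 rats of different diets, one labelled with Cy5 and one with Cy3, and each diet had both dyes equally. The slide held the C10 rats on its arrays 1 to 4 and the I rats on its arrays 5 to 8, with 2 REF and 2 CF rats in either set. C10 and I thus cannot be told apart from these sets of arrays except through REF and CF.

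Mucosal surfaces hold microbes at a distance with a film of mucus and secreted proteins that bind, starve or break open bacteria. Airway club cells secrete secretoglobins such as Scgb1a1, alveolar and airway cells secrete collectins such as Sftpd, which bind sugars on microbes, and the BPI-fold family, to which Bpifb2 belongs, is related to a lipopolysaccharide-binding protein of neutrophils. In the intestine, the epithelium adds lectins of the Reg3 family, Paneth cells of the small intestine add lysozyme and group IIA phospholipase A2, and inflamed epithelium and neutrophils add lipocalin 2, which captures bacterial iron carriers. Several of these genes answer to interleukin 22, interleukin 17 or bacterial products, which act on their promoters through STAT3, NF-kB and C/EBP factors.

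Promoter sequences from RefSeq (build GRCr8) were matched for 7 of the 8 genes by symbol, all but Sftpd. Of these, 4 are shown because their genes carried the relations reported below: Scgb1a1 and Bpifb2, which differed most between C10 and REF beside Sftpd, and Reg3g and Lyz2, which are set beside the B cell genes of the tissue below. Each line gives the 250 bases before the annotated start of the gene, 5′ to 3′ on the strand of the gene, and capitals mark matches to the motifs searched on both strands.
Scgb1a1 (chr1:215409687-215409936, minus strand): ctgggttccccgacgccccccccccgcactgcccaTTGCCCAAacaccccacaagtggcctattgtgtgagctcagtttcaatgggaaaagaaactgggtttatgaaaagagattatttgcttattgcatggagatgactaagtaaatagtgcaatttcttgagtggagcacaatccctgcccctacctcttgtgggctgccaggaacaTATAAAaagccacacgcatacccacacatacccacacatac
Bpifb2 (chr3:162817973-162818222, plus strand): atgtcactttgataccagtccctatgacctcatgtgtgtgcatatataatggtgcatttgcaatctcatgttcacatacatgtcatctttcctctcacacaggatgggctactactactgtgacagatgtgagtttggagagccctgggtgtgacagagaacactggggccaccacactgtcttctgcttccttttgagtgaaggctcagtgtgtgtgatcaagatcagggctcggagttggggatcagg
Reg3g (chr4:112484739-112484988, minus strand): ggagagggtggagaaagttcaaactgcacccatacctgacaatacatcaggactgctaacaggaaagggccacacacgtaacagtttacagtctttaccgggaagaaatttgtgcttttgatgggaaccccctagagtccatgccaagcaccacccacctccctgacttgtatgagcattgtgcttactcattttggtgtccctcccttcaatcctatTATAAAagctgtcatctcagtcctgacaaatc
Lyz2 (chr7:54798012-54798261, minus strand): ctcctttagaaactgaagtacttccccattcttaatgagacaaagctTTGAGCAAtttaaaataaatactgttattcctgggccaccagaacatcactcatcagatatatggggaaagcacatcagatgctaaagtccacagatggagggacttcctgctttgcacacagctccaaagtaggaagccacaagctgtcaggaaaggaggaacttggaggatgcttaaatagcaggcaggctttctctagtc
The motifs were the TATA box (TATAAA), a forkhead motif (TGTTTAC), a HOXB13-type motif (CAATAAA), a C/EBP motif (TTGCNNAA) and a STAT motif (TTCNNNGAA). None of these matches overlap in the promoters shown. TATAAA begins at position -41 from the start of Scgb1a1, -32 of Reg3g and -29 of Reg3b, and was found in 12.9% of all 33469 promoters of this length. The C/EBP letters occur at -215 in Scgb1a1, -203 in Lyz2 and -191 in Lcn2, and in 9.22% of all promoters. The STAT letters occur at -129 in Reg3b (7.67% of promoters). The forkhead and HOXB13-type letters, held by 3.21% and 4.08% of promoters, were found in none of the 7 windows, and the Bpifb2 window held none of the 5 motifs, nor did that of Pla2g2a. These are matches of letters and not sites of binding.

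The tissue carried the markers of colonic epithelium. Cdx2, Car1, Slc26a3, Krt20, Vil1 and Epcam were well above background in 16 of 16 rats. Of the defining markers of airway and lung, Sftpb was well above background in 0 rats, Sftpa1 and Nkx2-1 in 2, and Scgb3a2 and Sftpc in 4. Foxj1 was so in 9 rats, and Cyp2f4 and Ager were so in all 16. Of the neutrophil list, S100a8, S100a9 and Camp were so in all 16, Csf3r in 5, Mmp8 in 2 and Elane, Cxcr2 and Ltf in 0. Spots well above background made up 68.6 to 83.9% of a rat's spots, and the dimmest such signal lay between 5.82 and 6.21 on the normalized log2 scale, so that lower levels could not be measured. Both C10 rat 1 and C10 rat 4 stood apart in tissue markers. The mean of 6 smooth muscle genes was 12.13 in C10 rat 1 and 13.85 to 15.02 in the other rats, and the mean of 5 posterior Hox genes, which mark the lower end of the gut, was 10.28 in C10 rat 4 and 7.0 to 9.37 in the other rats. The differences of 6 of the genes between C10 and REF are given with and without each of these rats.

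Across the 16 rats, the 3 airway-type genes varied far more than most genes. Differences between diets, which a wide spread can enlarge, had a part in choosing them, so their ranks are a description. The signal of Sftpd spanned 6.97 log2 units (126-fold), that of Scgb1a1 6.05 (66.2-fold, or 3.07 and 8.42-fold without C10 rat 4) and that of Bpifb2 3.31 (9.88-fold). Within diets, the SD of Sftpd was 2.57, that of Scgb1a1 1.32 and that of Bpifb2 1.08, at percentiles 99.97, 99.7 and 99.4 of all genes tested, whose median SD was 0.16. Lcn2, Pla2g2a and Lyz2, with SDs between 0.69 and 0.73, were at percentiles 98.44, 98.36 and 98.19. The exception was Reg3g, with an SD of 0.19 (percentile 63.91), whose signal was near background throughout. In the plot of the signal of every rat, the spread inside a diet is as wide as the distance between diets for most of these genes.

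**Figure D1:**
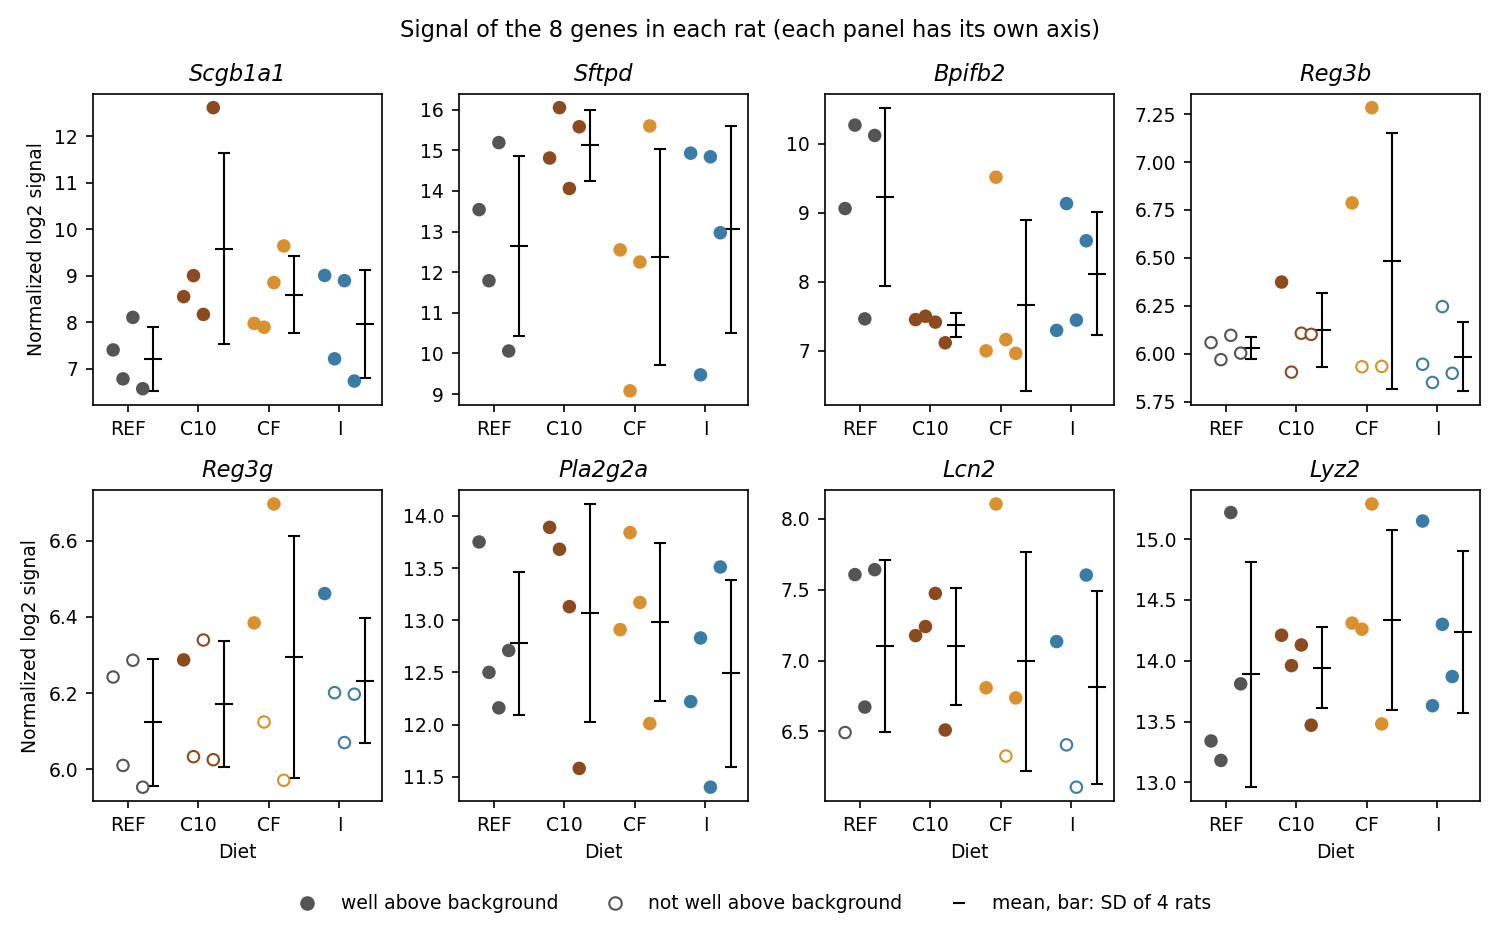
Normalized log2 signal (vertical axis, one scale per panel) of the 8 genes in each of 4 rats per diet, with rats in the order 1 to 4 from left to right, filled points well above background, open points not, and the mean with its SD of 4 rats beside them. Scgb1a1 in C10 lies between 8.17 and 12.62, above the 4 REF rats, while Bpifb2 in C10 lies between 7.11 and 7.5 and overlaps REF through REF rat 3 at 7.46.

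Scgb1a1 is the secretoglobin of airway club cells, a small protein with anti-inflammatory activity. Its signal in C10 rats 1 to 4 was 8.55, 9.0, 8.17 and 12.62, and in REF rats 7.41, 6.78, 8.11 and 6.57. The 4 C10 rats were all above the 4 REF rats, by a small margin between C10 rat 3 and REF rat 3, and C10 rat 4 was far above every other animal. The CF rats had signals of 7.98, 7.89, 8.85 and 9.64 and the I rats of 9.01, 7.21, 8.90 and 6.74, and both groups overlapped REF and C10. In the model, Scgb1a1 was higher by 2.33 in C10 than in REF (SE 0.70, 95% interval 0.84 to 3.83, 5.04-fold), by 0.97 in CF (SE 0.75) and by 0.38 in I (SE 0.70). Without C10 rat 4 the difference between C10 and REF was 1.59 and without C10 rat 1 it was 3.23, and without C10 rat 4 that between C10 and CF fell from 1.36 to 0.20. In order of mean signal, C10 (9.59 ± 2.05, SD, n = 4) stood above CF (8.59 ± 0.83), I (7.96 ± 1.16) and REF (7.22 ± 0.69), and each diet overlapped its neighbour in this order. Within arrays 1 to 4 alone, where 4 C10 rats met 2 REF rats, the difference was 2.49.

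Sftpd encodes surfactant protein D, a collectin that binds carbohydrates on bacteria and fungi. Its signals were 14.81, 16.05, 14.06 and 15.58 in the C10 rats and 13.54, 11.79, 15.19 and 10.06 in the REF rats. The C10 rats were all high, but REF rat 3 was among them, so the groups overlapped. The CF rats (12.55, 9.08, 12.25 and 15.60) and the I rats (14.93, 9.47, 14.84 and 12.97) ranged from the lowest levels of the series to those of C10. The model gave a difference of 3.05 between C10 and REF (SE 1.35, 95% interval 0.14 to 5.96, 8.28-fold), of 2.84 between C10 and CF (interval -0.07 to 5.74) and of 0.21 and 0.33 for CF and I against REF (SE 1.47 and 1.35). The mean signal ran the other way for CF, at 12.37 compared with 12.64 in REF. The difference between C10 and CF was 1.42 without CF rat 2 and 3.98 without CF rat 4. Without C10 rat 1 the difference between C10 and REF was 4.12, and without C10 rat 4 it was 2.80. This difference was 2.08 without REF rat 4 and 4.25 without REF rat 1. The value for I against REF was -1.14 without REF rat 4 and 1.55 without REF rat 3. That for CF against REF was -1.23 without CF rat 4 and 1.425 without CF rat 2. Between CF and REF the sign differed between the sets of arrays, with -1.85 on arrays 1 to 4 and 1.30 on arrays 5 to 8, each from 2 rats against 2. The SD was 0.88 in C10 and 2.22 to 2.67 in the other diets.

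Bpifb2 encodes a secreted BPI-fold protein. Its signals were 9.06, 10.27, 7.46 and 10.12 in the REF rats and 7.45, 7.5, 7.41 and 7.11 in the C10 rats. All C10 rats were low and nearly equal (SD 0.17), 3 REF rats were high, and REF rat 3 lay inside the C10 range. In the CF group, rats 1, 3 and 4 were low (7.0, 7.16 and 6.96) and CF rat 2 was high (9.51), and the I rats were split in the same way (7.29, 9.13, 7.44 and 8.59). The differences from REF were -2.07 in C10 (SE 0.57, 95% interval -3.30 to -0.85, 4.21-fold lower), -1.57 in CF (SE 0.62, interval -2.89 to -0.24) and -0.89 in I (SE 0.57, interval -2.12 to 0.33). The value for I was -0.43 without REF rat 4 and -1.64 without REF rat 3. Without C10 rat 1 the difference of C10 from REF was -2.42, and without C10 rat 4 it was -1.89. By mean signal the order was REF (9.23 ± 1.29, SD, n = 4), I (8.12 ± 0.89), CF (7.66 ± 1.24) and C10 (7.37 ± 0.17), with overlap between all neighbours. Within each set of arrays the difference of CF from REF was -1.41 on arrays 1 to 4 and -1.73 on arrays 5 to 8.

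**Figure D2:**
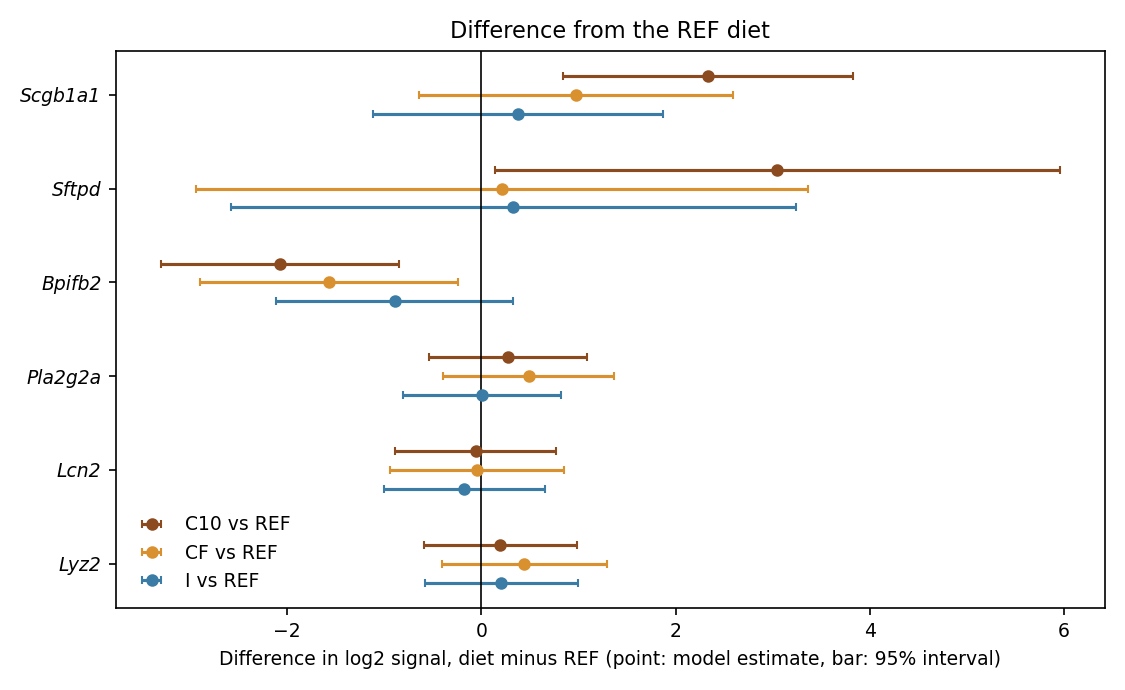
Difference in log2 signal of C10, CF and I from REF (horizontal axis) for 6 of the genes tested, Reg3g being left out, as model estimates with 95% intervals over 4 rats per diet. The estimates for C10 are 2.33 for Scgb1a1, 3.05 for Sftpd and -2.07 for Bpifb2, and the other 3 genes lie between -0.06 and 0.28. The intervals show precision and are no test, since these differences had a part in choosing the genes.

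Between C10 and REF, the antimicrobial genes differed less than the airway-type genes. Scgb1a1, Sftpd and Bpifb2 are in the study's own lists of 2-fold differences between C10 and REF, and the antimicrobial genes are not. The choice of genes used these differences, so this contrast was largely set in advance. Lyz2, the lysozyme of macrophages and neutrophils, which cleaves the bacterial cell wall, had signals of 14.21, 13.96, 14.13 and 13.47 in C10 and of 13.34, 13.18, 15.22 and 13.81 in REF. The CF rats reached 14.31, 14.26, 15.29 and 13.48 and the I rats 15.15, 13.63, 14.30 and 13.87. One animal in each of REF, CF and I stood above 15, and the groups overlapped throughout. Differences from REF were 0.20 in C10, 0.44 in CF and 0.21 in I (SE 0.37, 0.40 and 0.37), and C10 was at -0.05 without C10 rat 1 and at 0.35 without C10 rat 4. The related lysozyme Lyc2 had no named probe here, and whether the Lyz2 probe also binds its RNA was not tested.

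Pla2g2a encodes the group IIA secretory phospholipase A2, which attacks the membranes of Gram-positive bacteria. Signals ran from 11.58 to 13.89 in C10 (median 13.41), 12.16 to 13.75 in REF (12.60), 12.01 to 13.84 in CF (13.04) and 11.40 to 13.51 in I (12.53). The groups overlapped, and C10 rat 4 and I rat 3 were the lowest animals. The difference between C10 and REF was 0.28 (SE 0.38, 95% interval -0.54 to 1.09), and it ranged from -0.26 without C10 rat 1 to 0.58 without C10 rat 4. It was 0.49 for CF (SE 0.41, interval -0.40 to 1.37) and 0.01 for I (SE 0.38), although the mean signal of I (12.49) was below that of REF (12.78).

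Lcn2, the siderophore-binding lipocalin, was well above background in 12 of 16 rats, namely 4 in C10, 3 in REF, 3 in CF and 2 in I. Its highest signals were 8.11 in CF rat 2, 7.64 in REF rat 4, 7.61 in REF rat 2 and 7.60 in I rat 4, and the C10 rats lay between 6.51 and 7.47. No diet stood apart. The differences from REF were -0.06 in C10, -0.05 in CF and -0.17 in I, with SEs of 0.38 to 0.42, and that of C10 was -0.32 without C10 rat 1 and 0.22 without C10 rat 4.

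The 2 Reg3 lectins were close to the limit of measurement. Reg3b was well above background in 3 rats, with signals of 7.28 in CF rat 3, 6.79 in CF rat 1 and 6.37 in C10 rat 1, and lay between 5.85 and 6.25 in the other 13. Reg3g, which binds the peptidoglycan of Gram-positive bacteria, was so in 4 rats, with 6.70 in CF rat 3, 6.46 in I rat 1, 6.38 in CF rat 1 and 6.29 in C10 rat 1. Both genes were thus above background in the same 2 CF rats and in C10 rat 1, and neither was so in any REF rat. No fold change is given for either gene, since the REF level is only a bound.

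Of the 7 genes tested, limma called 0 in each of the 6 comparisons at an adjusted p below 0.05 and at least 2-fold. Over all genes, the called share was 0.196% for C10 against REF, 0.101% for C10 against CF, 0.161% for C10 against I and 0% for the other 3 comparisons. At an unadjusted p below 0.05 the count was 3 of 7 for C10 against REF (17.1% of all genes), 1 for CF against REF (6.4%), 1 for C10 against I (12.2%) and 0 for I against REF (5.7%), C10 against CF (13.5%) and CF against I (2.83%). Differences of at least 2-fold were seen for 3 of the 7 in C10 against REF, which 0.834% of all genes reached, and only Scgb1a1 had groups without overlap, as did 4.6% of all genes. The median difference between C10 and REF was 0.20 over the 7 genes and 0.01 over all genes. Without C10 rat 1, the piece low in smooth muscle genes, Scgb1a1 was called (3.23), and without REF rat 3, Bpifb2 was called (-2.56). The choice of the genes used these comparisons, so nothing is read from these counts and calls.

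Relations among rats of the same diet were examined with the diet means removed. The genes were chosen with earlier results of these data known, and the p-values below do not allow for that choice. For each rat, the deviation from its diet mean was taken after removing the dye effect, and the 21 pairs of genes were tested by permuting rats within diets (100000 permutations, two-sided), with Benjamini-Hochberg adjustment. Rats with more Sftpd had less Bpifb2, with r = -0.86 (permutation p 0.00116, adjusted p 0.0225) and rho = -0.80 (p 0.00227, adjusted p 0.0477) over 16 rats. The correlation was -0.84 without I rat 2 and REF rat 4, the 2 rats farthest from the median, and it was -0.80 and -0.89 in the 8 rats of arrays 1 to 4 and of arrays 5 to 8. The pairs with Reg3g, which was at background in 12 rats, counted in the adjustment but are not reported. None of the other 14 pairs passed the adjusted threshold by either measure, and the nearest were those of Scgb1a1 with Pla2g2a (r = -0.74) and Lcn2 (r = -0.59), each with an adjusted p of 0.0607.

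The same deviations were set against the mean signal of 12 marker lists, 84 relations in all. The lists, like the genes, were chosen with earlier results of these data known, and the p-values do not allow for that choice. Hoxb13, Hoxd13 and Hoxd10 are in the study's list of genes higher in C10, with Scgb1a1 and Sftpd. Gkn2, Tff1 and Pga5 are in its list of lower genes, with Bpifb2. Bpifb2 followed the mean of the stomach list (Gkn2, Tff1, Tff2, Pga5 and Atp4a, which are products of gastric mucosa) with r = 0.98 (permutation p 8.70e-04, adjusted p 0.00731) and rho = 0.94 (p 8.20e-04, adjusted p 0.0127), and r = 0.96 without the 2 farthest rats. This mean moved mostly through Gkn2, Tff1 and Pga5, which reached 8.69, 8.34 and 8.70. Atp4a spanned only 6.68 to 7.02 and Tff2 5.89 to 7.12. Gkn2 was well above background in 8 rats and Tff2 in 5. Bpifb2 rose with the colon epithelium list (r = 0.85 and rho = 0.92, adjusted p 0.00462 and 0.0084, r = 0.73 without the 2 farthest rats) and fell with the posterior Hox list (r = -0.75 and rho = -0.76, adjusted p 0.00731 and 0.0113, r = -0.64 without them). Sftpd had the opposite signs. Its relation with the colon epithelium list did not pass (r = -0.67 and rho = -0.66, adjusted p 0.078 and 0.0732). Against the posterior Hox list, r was 0.79 and rho 0.73 (permutation p 8.20e-04 and 0.00496, adjusted p 0.00731 and 0.0394), and r was 0.72 without the 2 farthest rats. Against the stomach list, r was -0.88 (adjusted p 0.00731) and -0.85 without those rats, but rho was -0.75 and did not pass (adjusted p 0.0668). Scgb1a1 also rose with the posterior Hox list (r = 0.75 and rho = 0.77, permutation p 0.00333 and 0.00401, adjusted p 0.0212 and 0.0374, and r = 0.62 without C10 rat 4 and REF rat 3). For the Hox list, the correlations in arrays 1 to 4 and in arrays 5 to 8 were 0.72 and 0.88 for Scgb1a1, 0.64 and 0.90 for Sftpd and -0.62 and -0.90 for Bpifb2.

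Hoxb13, a homeobox gene of the most caudal part of the body that is strongest in the distal colon and rectum, shows this relation rat by rat. It belongs to the posterior Hox list and had the widest range there, so it is not a separate line beside the list. Hoxd13 ran from 6.25 to 9.62, Hoxd9 from 8.07 to 9.36 and Hoxd12 from 6.02 to 6.77, and Hoxd10 reached 10.75. The signal of Hoxb13 was 6.60 in REF rat 4, 9.72 in CF rat 2 and 9.96 in I rat 2, and 12.36 to 14.88 in the other 13 rats. The same 3 rats had the 3 lowest signals of Sftpd, 10.06, 9.08 and 9.47, and high signals of Bpifb2, 10.12, 9.51 and 9.13. None of these 3 was a C10 rat, and in the C10 rats Hoxb13 lay between 13.40 and 14.88. Bpifb2 was also high in REF rat 2 (10.27) and REF rat 1 (9.06), where Hoxb13 was 12.36 and 13.14. The mean of the posterior Hox list was 8.78 to 10.28 in C10 and 7.0 to 8.98 in REF, and that of the stomach list 6.28 to 6.67 in C10 and 6.62 to 7.91 in REF. With the posterior Hox mean as a covariate, a setting chosen after seeing the data, the difference between C10 and REF became 0.97 for Scgb1a1, 0.40 for Sftpd and -0.98 for Bpifb2. The position of each piece along the colon was not measured, and its part in these differences was not tested. In a piece of tissue, fewer cells of a type and less RNA per cell cannot be told apart.

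**Figure D3:**
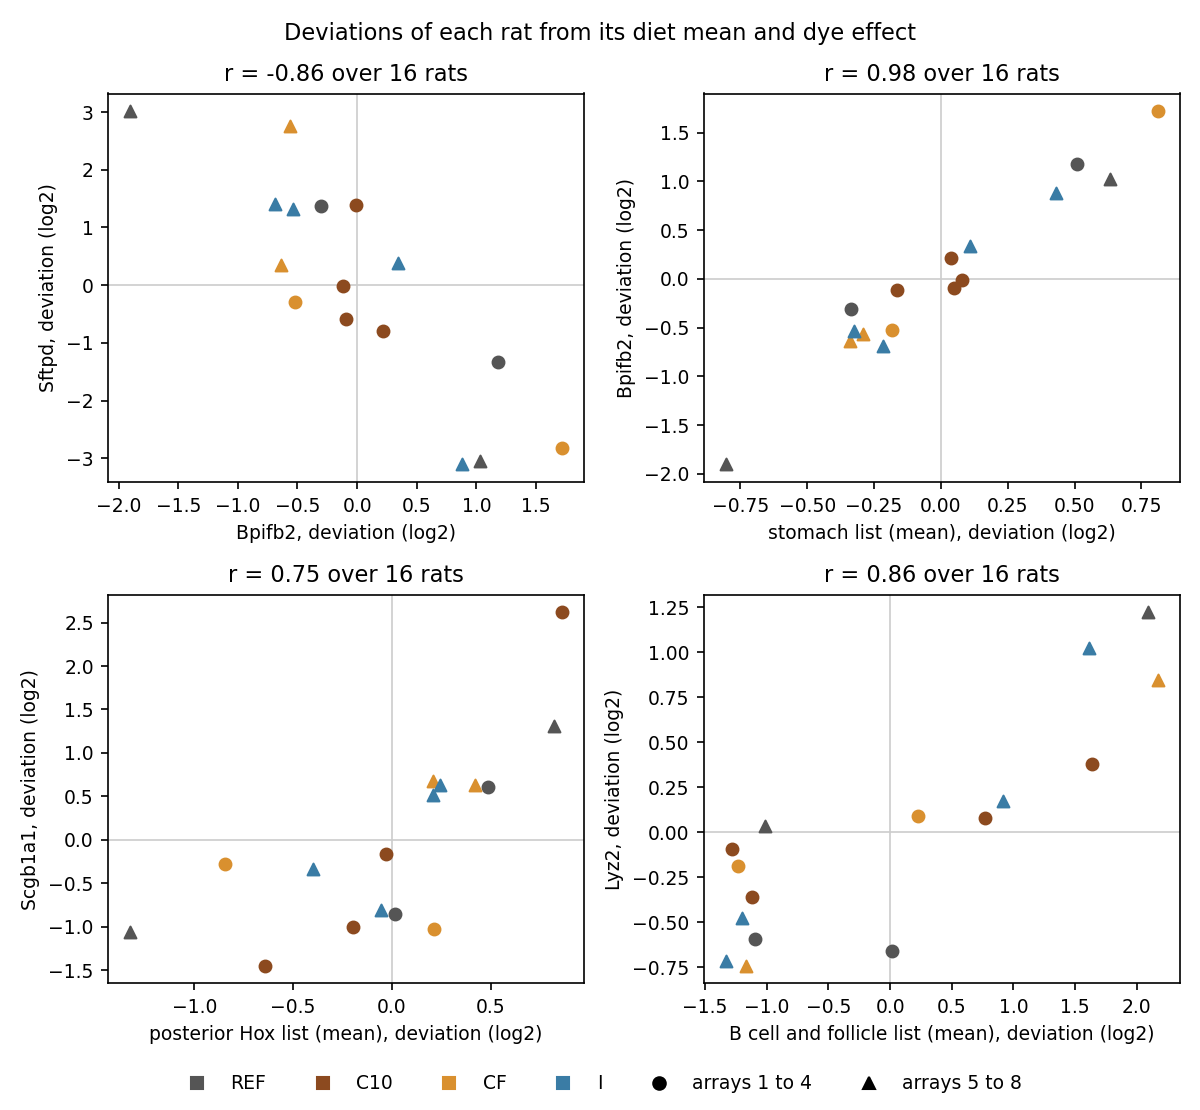
Deviations in log2 signal from the diet mean and dye effect for 16 rats, coloured by diet and shaped by arrays 1 to 4 or 5 to 8, in 4 panels, each with 1 gene on the vertical axis and another gene or the mean of a marker list on the horizontal axis. Sftpd falls as Bpifb2 rises (r = -0.86), Bpifb2 rises with the stomach list (r = 0.98), Scgb1a1 with the posterior Hox list (r = 0.75) and Lyz2 with the B cell and follicle list (r = 0.86).

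Scgb1a1 was most closely tied to the airway and lung list (r = 0.93, rho = 0.87, permutation p 6.50e-04 and 0.00128, adjusted p 0.00731 and 0.0154, and r = 0.87 without the 2 farthest rats). This list moved through Cyp2f4, a cytochrome P450 of club cells, whose signal ran from 6.46 in REF rat 4 to 10.97 in C10 rat 4. The other 4 tested genes of the list spanned 6.73 to 6.97 (Ager), 6.24 to 6.68 (Foxj1), 6.05 to 7.38 (Sftpc) and 5.83 to 6.93 (Scgb3a2). Lcn2 fell as the list rose (r = -0.73, rho = -0.77, permutation p 2.20e-04 for both, adjusted p 0.00462 and 0.00924, and r = -0.72 without CF rat 2 and I rat 4). Bpifb2 also ran against the list (r = -0.50, rho = -0.61), though neither measure passed (adjusted p 0.078 and 0.0501). Airway-type is thus only a group label for Bpifb2 and does not describe how it varied here. Scgb1a1 also fell with the colon epithelium list (r = -0.71, adjusted p 0.0158) and with the stomach list (r = -0.57, adjusted p 0.0436), although rho did not pass for either (adjusted p 0.0605 and 0.0668).

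Lyz2 varied with the B cell genes of the tissue. The B cell and follicle list (among others Cd79b, Cd22, Cxcr5, Cr2 and Cxcl13) correlated with Lyz2 at r = 0.86 and rho = 0.81 (permutation p 3.50e-04 and 9.10e-04, adjusted p 0.00588 and 0.0127). In arrays 1 to 4 and in arrays 5 to 8, r was 0.64 and 0.94, and without the 2 farthest rats it was 0.80. Reg3g was above background in 4 rats only, and the list stood at 9.69, 8.35, 10.01 and 9.86 in C10 rat 1, CF rat 1, CF rat 3 and I rat 1, in which Reg3g was measured, and at 6.48 to 9.50 in the other 12. The list ranged from 6.48 to 9.69 within C10, 6.59 to 9.50 within REF, 6.61 to 10.01 within CF and 6.63 to 9.86 within I. Each diet thus held rats with high and with low means of this list. Lyz2 fell with the goblet list (r = -0.80, rho = -0.73, adjusted p 0.00462 and 0.0113). Lyz2 fell also with the smooth muscle list by r (-0.48, adjusted p 0.0212) but not by rho (adjusted p 0.197), and r was -0.85 without C10 rat 1. With the macrophage list, whose cells are known for lysozyme, r was 0.10 for Lyz2 (adjusted p 0.802).

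**Figure D4:**
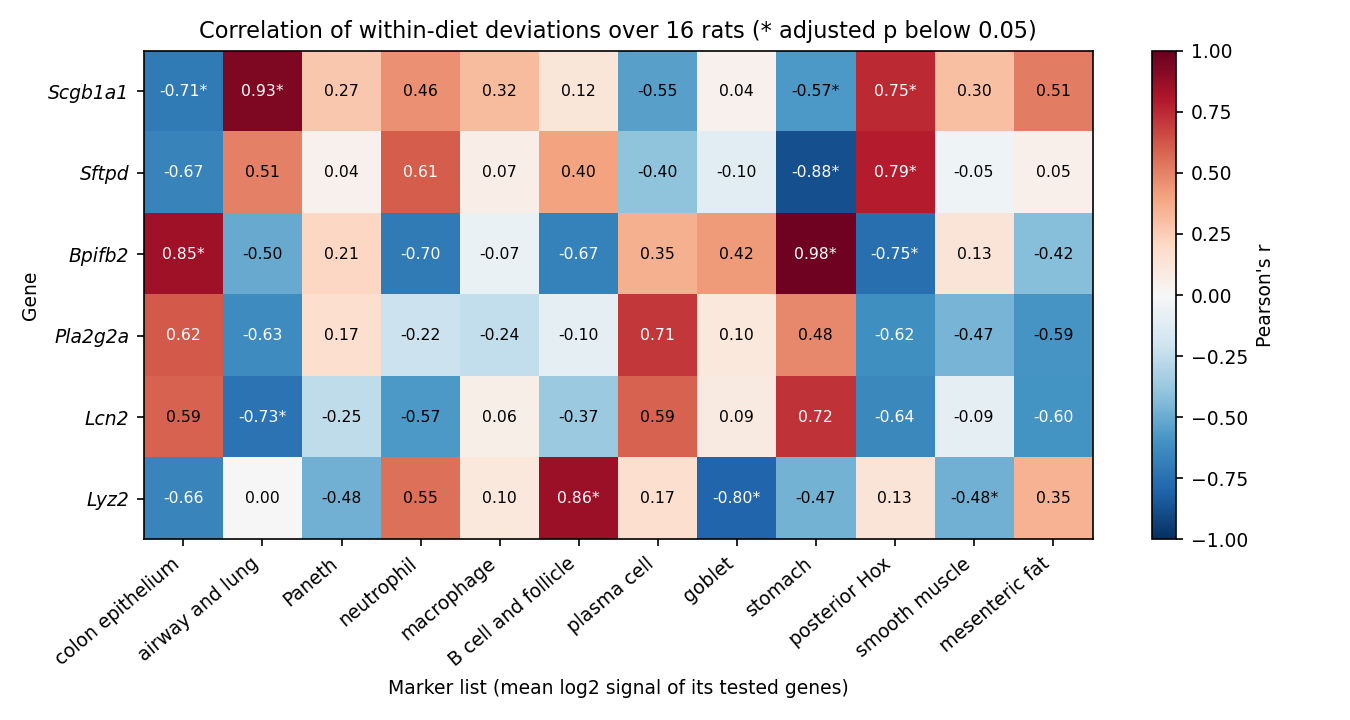
Pearson correlation, over 16 rats, between the within-diet deviations of 6 genes (rows, without Reg3g) and of the mean signals of 12 marker lists (columns), with an asterisk where the adjusted p over 84 relations is below 0.05. The highest value is 0.98 for Bpifb2 with the stomach list, and Pla2g2a has no relation that passes by r.

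Pla2g2a had no relation past the threshold by r, and by rho it rose with the plasma cell list (rho = 0.74, adjusted p 0.0423, r = 0.71, adjusted p 0.0537). Lcn2 likewise rose with the plasma cell list by rho (0.68, adjusted p 0.0407) and not by r (adjusted p 0.0723), and Bpifb2 fell with the neutrophil list by rho (-0.79, adjusted p 0.0394) and not by r (adjusted p 0.0723). No relation of Lcn2 with the neutrophil list passed (r = -0.57, adjusted p 0.135), and only S100a8, S100a9 and Camp of that list were well above background in all rats.

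The genes most like each of the 7, Reg3g left out, over the 16 rats, by Pearson correlation after each dye's mean was subtracted, differed from gene to gene. For Scgb1a1 they were Trpv1, a heat-gated ion channel, Fmo2, a flavin monooxygenase, and Krt75, a keratin, all at r = 0.93. For Sftpd they were the sulfotransferase Chst5 (r = 0.89), Rep15 and the glycosyltransferase B3gnt7 (both 0.88), and for Bpifb2 the cholesterol transporter Npc1l1, the tachykinin Tac4 and the glycosyltransferase B3gnt6 (all 0.97). Those of Lyz2 were the adaptor Dok1 (0.94), the lymphocyte protease Ctsw and Chst10 (both 0.93). Those of Pla2g2a were Lhfpl2 (0.89), the oxidase maturation factor Duoxa2 (0.85) and the transcription factor Pdx1 (0.84), and those of Lcn2 were Phyh (0.84), Ttc21b (0.83) and 9530082P21Rikl (0.81). Each of these was among the best 3 of 11921 named genes, so the values are a description.

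Of 126 genes related to the 8 by family or function, in 9 lists, 105 had a probe and 65 were tested, and limma called 0 in any comparison. At an adjusted p below 0.05 and any fold, 1 passed for C10 against REF (0.955% of all genes), 1 for C10 against CF (0.427%), 0 for C10 against I (0.558%) and 0 for the other 3 comparisons (0%). At an unadjusted p below 0.05 the count was 16 of 65 in C10 against REF (24.6%, and 17.1% of all genes), 12 in C10 against CF (18.5% and 13.5%) and 15 in C10 against I (23.1% and 12.2%). It was 3 in CF against REF (4.62% and 6.4%), 2 in I against REF (3.08% and 5.7%) and 4 in CF against I (6.15% and 2.83%). The 65 genes had a median difference of 0.01 between C10 and REF, the same as all genes. The gene that passed was Reg4, a lectin of goblet and endocrine cells, which was lower in C10 than in REF by a log2 value of -0.60 (SE 0.13, adjusted p 0.0473), and which is named because of its value.

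By family, none of the 3 other secretoglobins tested passed the threshold in C10 against REF, with 0.10 for Scgb3a1 (SE 0.06, adjusted p 0.402). Scgb3a2 was not well above background in any C10 or REF rat, so its difference is not given and its test decides nothing. Of the surfactant proteins and collectins, the scavenger collectin Colec12 was at -0.25 (SE 0.08, adjusted p 0.161). Among C10 and REF rats, Sftpc was well above background only in C10 rat 2, C10 rat 4 and REF rat 2, so its difference is not given. Among 8 BPI-fold genes, 5 had estimates above 0 and 3 below, and each C10 rat had less Bpifb6 than any REF rat (-0.60, SE 0.23, adjusted p 0.199). Lbp, the lipopolysaccharide-binding protein of serum, was at 0.56 (SE 0.49, adjusted p 0.613). All 4 tested lectins had estimates below 0, among them the goblet cell lectins Itln1 (-0.87, adjusted p 0.573) and Zg16 (-0.66, adjusted p 0.306), both with rats that overlapped between diets. The goblet marker list, which also holds Zg16, had 6 of 6 tested genes below 0 (median -0.36), compared with 46.1% of all genes. Estimates were below 0 too in the smooth muscle list (6 of 6, median -0.88) and the plasma cell list (5 of 5, -0.77). The same held for the mesenteric fat list (3 of 3, -1.09). The smooth muscle mean was 12.13 in C10 rat 1, 14.47 to 14.6 in the other C10 rats and 14.38 to 15.02 in REF. The size of the smooth muscle difference thus rests largely on C10 rat 1. The part of the goblet, smooth muscle, plasma cell and mesenteric fat lists in the differences of the related genes was not tested.

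Of the 7 secreted phospholipases, the widest estimates were -0.45 for Pla2g1b (adjusted p 0.348) and 0.31 for Pla2g2d (adjusted p 0.874). Slc22a17, the cell-surface receptor for Lcn2, was lower in C10 than in CF by a log2 value of -0.50 (SE 0.10, adjusted p 0.0464), with no overlap between the groups, and stood at -0.41 against REF (adjusted p 0.0703) and -0.49 against I (adjusted p 0.0683). The lipocalin Lcn12 was at -0.29 against REF (SE 0.07, adjusted p 0.0506), and Lyzl6, the only other lysozyme tested, at 0.01 (adjusted p 0.959). Among 19 other antimicrobial genes, 12 had estimates below 0 in C10 against REF, the widest being those of Slpi, a protease inhibitor of mucosal secretions (-1.32, SE 0.36, adjusted p 0.0904), and Dmbt1, a scavenger protein that binds bacteria (-1.04, SE 0.57, adjusted p 0.379). The signal of Slpi was 9.39 to 11.40 in C10, 11.30 to 12.33 in REF, 11.11 to 12.99 in CF and 11.78 to 13.03 in I. Of the 15 upstream signals, 12 had estimates above 0 and 3 below, compared with 46.1% of all genes below 0. None of the 15 passed the threshold. Spib, a transcription factor of B cells and of the epithelium over follicles, was at 0.93 (SE 0.77, adjusted p 0.588). The B cell and follicle list also had 6 of 6 genes above 0 (median 0.61). The cytokine Il1b was at -0.65 (SE 0.30, adjusted p 0.292).

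**Figure D5:**
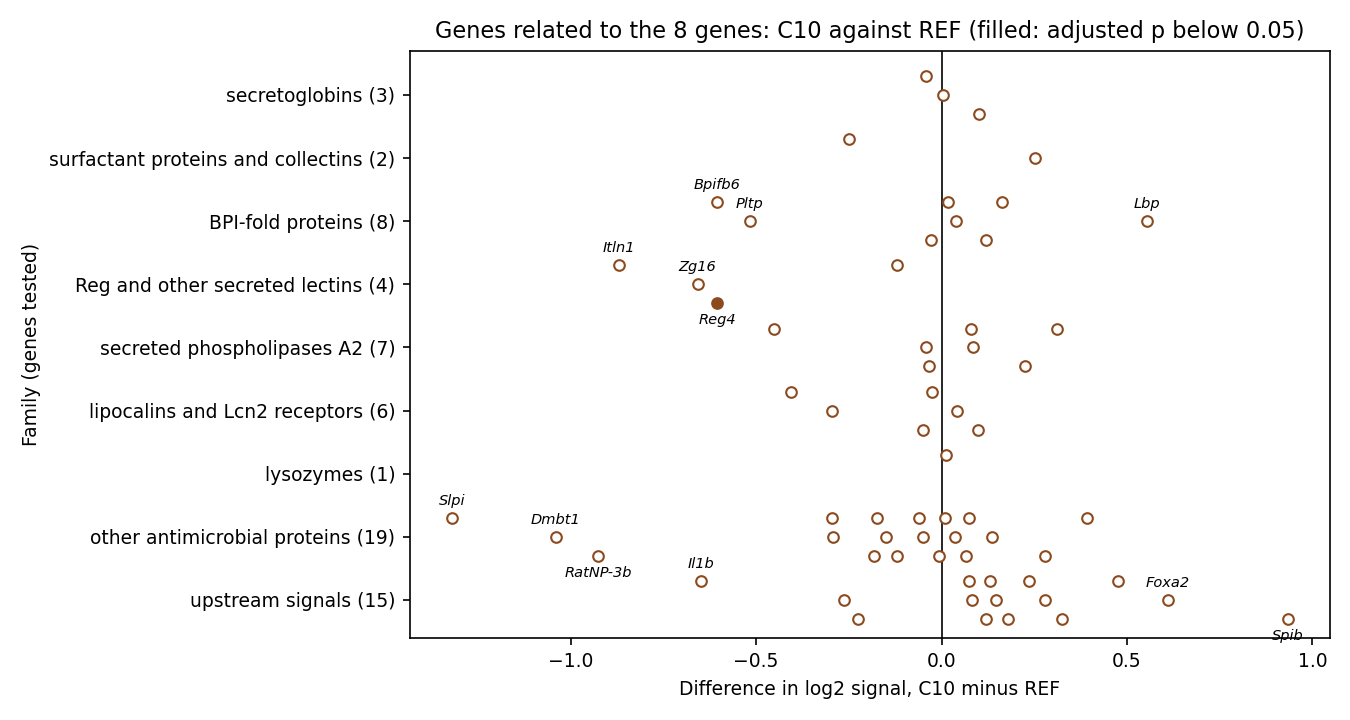
Difference in log2 signal between C10 and REF (horizontal axis) for the 65 tested genes related to the 8, one point per gene, grouped by family with the number tested, filled where the adjusted p is below 0.05 and named beyond 0.5. Reg4, at -0.60, is the only filled point, and Slpi, at -1.32, lies farthest from 0.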

How the data were processed

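Colon RNA of 16 rats was hybridised to 8 two-colour Agilent arrays, and the sample labels gave the diet in each dye. The methods section describes dye swaps for every sample, but the sample titles hold 16 different identifiers, each on 1 array, which were taken as 16 rats and numbered here within diets in record order. The authors deposited scanner output (Agilent Feature Extraction 10.7.3.1) with median intensity and local background intensity per spot and flags for outliers and for signals above background, without normalization; a normalized table of 8 columns that could not be matched to samples was not used.

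With limma 3.58.1 (R 4.3.3, statmod 1.5.0, the data.table package, version 1.17.8), intensities were corrected by normexp (offset 50, which compresses low signals), then normalized by spatial loess (span 0.4), intensity loess (span 0.3) and Aquantile, and the spots of each probe were averaged. The background correction and the normalizations are those that the study's methods name, with offset and spans chosen here. Of 30367 probes, 22537 passed a filter of 4 rats or more above background and gave 19899 genes by the brightest probe. Names came from RefSeq accessions (17935 of 19109 matched). Diet and dye were fitted with the array as a block (correlation 0.4205), followed by eBayes and Benjamini-Hochberg adjustment over all genes, with calls at an adjusted p below 0.05 and a difference of 2-fold or more. The study's rank product test was not run. The fit was tested on simulated data.

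The 8 genes and all lists were chosen with earlier results of these data known. The text names the 8 genes and the 3 genes most like each but Reg3g. In each of the 9 family lists it names the 2 with the largest difference between C10 and REF. Any family gene that passed an adjusted p below 0.05 at any fold is named too. Permutations of within-diet deviations treated the rats on one array as independent. Alternatives covered background correction, normalization, probe filters, the dye and array terms, the sets of arrays, marker covariates and each rat left out. The number of arrays limits the precision. The level of 1 marker gene is not reported here.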

Additional observations from a re-analysis of the deposited data

Results flagged for a closer look

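One value stood apart from the other rats of its diet by Dixon's test. The signal of Bpifb2 in CF rat 2 was 9.515, compared with 6.96 to 7.16 in the other CF rats. Of 32 groups tested (8 genes in 4 diets) this was 1, and chance alone gives about 1 in 20. In CF rat 2, the signal of Sftpd was the lowest of all rats (9.08), Hoxb13 was 9.72 and the mean of the stomach list was 7.56, and the part of these in the high Bpifb2 value was not tested. Without this rat, the difference of Bpifb2 between CF and REF was -2.22 in place of -1.57, and that between C10 and CF was 0.28 in place of -0.51.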

How the results depend on the processing

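The count of 0 called held in all 6 comparisons under the 13 settings other than leaving out a rat, with Lcn2 and Reg3g not run where a probe had to be above background in all rats; with 1 rat left out it was 0 to 1 for C10 against REF and 0 in the others. Of 1206 recomputed differences of the 7 genes, 1194 moved by less than the within-diet SD and 12 by more. This SD was wide, at 2.57 for Sftpd, 1.32 for Scgb1a1 and 1.08 for Bpifb2, so changes of sign can count as small moves. Each of these 3 genes moved by more in 1 case, C10 against REF with the posterior Hox mean as a covariate. There Sftpd went from 3.05 to 0.40, Scgb1a1 from 2.33 to 0.97 and Bpifb2 from -2.07 to -0.98. Scgb1a1 in C10 against REF was 2.94 without the offset and 3.27 with the scanner's processed signals in place of 2.33, and in CF against REF 1.49 and 1.78, and 0.42 with log ratios within arrays, in place of 0.97. With the posterior Hox mean as a covariate, Bpifb2 in C10 against CF was 0.05 in place of -0.51 and Sftpd in CF against REF -1.07 in place of 0.21. Over all genes, C10 against REF gave 65 calls without the offset, 67 with the scanner's processed signals, 21 without the dye term, 0 with log ratios within arrays and 18 with the posterior Hox mean as a covariate (chosen after seeing the data), and 17 to 95 with 1 rat left out, compared with 39. C10 against CF gave 35, 37, 10 and 0 under the first 4 of these and 0 to 38 with 1 rat left out, compared with 20. C10 against I gave 57 without the offset, 60 with processed signals, 0 with log ratios, 13 with the set of arrays as a block, and, in covariate settings chosen after seeing the data, 17 with the posterior Hox mean and 49 with the B cell mean, and 15 to 61 with 1 rat left out, compared with 32. I against REF gave 0 to 1 with 1 rat left out. The cause was not tested. The log ratios within arrays pair the 2 rats of each array, and C10 met REF on arrays 1 and 2 only. The labels give no replicate numbers, so no other pairing was made. Signals below 5.82 to 6.21 could not be measured, which limits Reg3b and Reg3g.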
